A study of Mus musculus with 6 samples.

Results

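The transcripts described here were higher in CNOT3-depleted than in control mouse embryonic fibroblasts (MEFs) before transcription was blocked, and kept less than 1.5 times the control fraction of their signal afterwards. They were selected on measured values. A probe set, a group of short probes on the array that reads 1 transcript, was taken where its signal was at least 200 in untreated CNOT3-depleted MEFs and at least 2 times that in untreated control MEFs, and where the fraction of the 0 h signal left in CNOT3-depleted MEFs was less than 1.5 times that in control MEFs at both 6 and 12 h of actinomycin D (Act. D), a drug that stops transcription. Signals under 20 were set to 20 first. The rule took 254 of 45037 probe sets (0.564%). Of these, 235 were annotated with 1 gene, 10 with several and 9 with none, and the 235 named 212 genes of the 18193 named on the array (1.17%). The same rule with the cultures exchanged, for probe sets higher in control MEFs, took 288 (0.639%).

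The MEFs were primary cells from mice whose CNOT3 alleles carry loxP sites. A retrovirus with Cre recombinase gave the CNOT3-depleted MEFs, called CNOT3KD, and a mock retrovirus gave the control MEFs, whose genotype the labels give as wild type. Both were selected with puromycin. Total RNA was taken without Act. D (0 h) and after 6 and 12 h of it, and each of the 6 conditions was read by 1 array. There is therefore no replicate error, and no difference below has a test. The Cre acts on a whole culture, so the arrays average cells that lost CNOT3 with any that escaped, and fewer cells of a type cannot be told apart from less RNA per cell.

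CCR4-NOT is the main complex that shortens the poly(A) tails of mRNAs, the usual first step of their decay, and CNOT3 is one of its subunits. The steady-state level of an mRNA depends on both its synthesis and its decay. Act. D separates these, since only decay acts on a transcript once synthesis has stopped. The signal left at 6 or 12 h is given here in percent of what the culture had at 0 h. Each array is scaled to nearly the same trimmed mean, so that a stable mRNA can show more than 100% while short-lived mRNAs vanish around it. On this scale the signal of 36 cytosolic ribosomal protein genes rose unequally. Their sum went from 678146 at 0 h to 776130 at 12 h in CNOT3-depleted MEFs. In control MEFs it went from 697880 to 1.2451e+06. Comparisons of the percentages left between the cultures therefore hold for this scale only. Cnot3 itself had a signal of 239.6, 128 and 82.9 in CNOT3-depleted MEFs at 0, 6 and 12 h, against 436, 193 and 198 in control MEFs. A further Cnot3 probe set had 226.7, 90.7 and 92.6 in CNOT3-depleted MEFs, compared with 203.6, 201 and 279 in control MEFs, so only the first was lower before Act. D. Of 15 fibroblast markers measured, 0 differed by 2-fold at 0 h in either direction.

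Among the 15649 probe sets with a signal of at least 200 in CNOT3-depleted MEFs at 0 h, 398 (2.54%) were at least 2-fold higher there than in control MEFs. The 254 members are the larger part of these, and the other 144 kept at least 1.5 times the fraction of control at 6 or 12 h. The median member signal at 0 h was 437.6 in CNOT3-depleted MEFs and 173.6 in control MEFs. Most differences were moderate. The ratio was between 2 and 3 in 198 members, between 3 and 5 in 42 and above 5 in 14, with a median of 2.35 and a highest value of 11.6. In control MEFs 44 members had a 0 h signal under 100, where a ratio rests on little signal.

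The limits of the rule fall in a dense part of the data. H2aw entered at a ratio of 2.00 and Mettl27 stayed out at 1.99. Ropn1l entered at a signal of 202 and Rbp4 stayed out at 198.5. Pamr1 entered at a ratio of the fractions left of 1.49 at 12 h, while Ikbke, a kinase of antiviral signalling, stayed out at 1.502.

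Once transcription was blocked, the 2 cultures drew closer for most members on the array scale used. The CNOT3KD to control ratio had a median of 1.84 at 6 h and 1.81 at 12 h. Over all 15649 probe sets the medians were 1.10 and 1.17, and over the 144 that kept more they were 4.29 and 6.91. At 12 h the ratio was 2 or more in 104 members, between 1.5 and 2 in 63, between 1 and 1.5 in 64 and below 1 in 23. At both 6 and 12 h it was at least 2 in 74 members (29.1%), against 16.9% of the 15649 probe sets and 136 (94.4%) of the 144. The limit on the fraction left caps these later ratios in the members, which were also picked for a high ratio at 0 h. The medians and shares therefore describe the selection and support nothing further. The levels after Act. D also depend on how the arrays are put on 1 scale. With ribosomal protein mRNAs as the scale, the median log2 ratio of the fractions left over the 15649 probe sets rose from 0.11 to 0.64. This is a shift of 0.54, and 192 of the 254 still met the rule. Of the 299 probe sets that met the rule on that scale, 169 were at least 2-fold higher at 0, 6 and 12 h. The members' median log2 ratio at 0 h moved less, from 1.24 to 1.32. That the cultures drew closer is therefore stated for the array scale only and is not carried over to the ribosomal protein scale. The members' median ratios at 6 and 12 h were not computed on the latter.

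**Figure D1:**
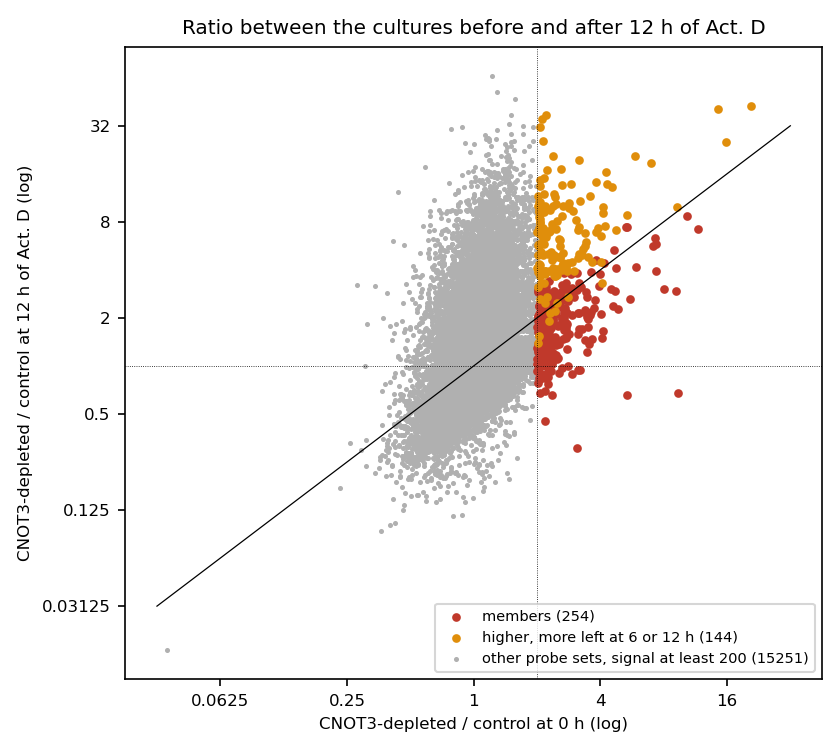
CNOT3KD to control signal ratio at 0 h (x axis) and at 12 h of Act. D (y axis), both log scales, for probe sets with a CNOT3KD 0 h signal of at least 200; red points are the 254 members, orange points the 144 that kept a larger fraction, and grey points the rest. The diagonal marks an unchanged ratio, and 23 members lie below the dotted line at a 12 h ratio of 1.

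Most members kept the larger part of their signal under Act. D. The median member had 114% of its signal left at 12 h in CNOT3-depleted MEFs, compared with 152% in control MEFs. Over the 15649 probe sets it was 98.4% in CNOT3-depleted MEFs and 74.1% in control MEFs. At least 75% was left in both cultures in 210 members (82.7%), against 46.7% of the 15649. At most 25% was left in both in 5 members (1.97%), against 5.66%. The fraction left in CNOT3-depleted MEFs was less than 1/1.5 of that in control MEFs at both times in 76 members (29.9%), against 5.43%. It was above that in control MEFs at both times in 17 members (6.69%), against 45.9%, and in these by less than the 1.5-fold limit. The rule itself caps the ratio of the fractions left. The 0 h arrays also enter both the ratio and the percentages left, so that a low control reading at 0 h raises both in the same probe set. For both reasons these shares describe the selection and nothing is read from them.

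**Figure D2:**
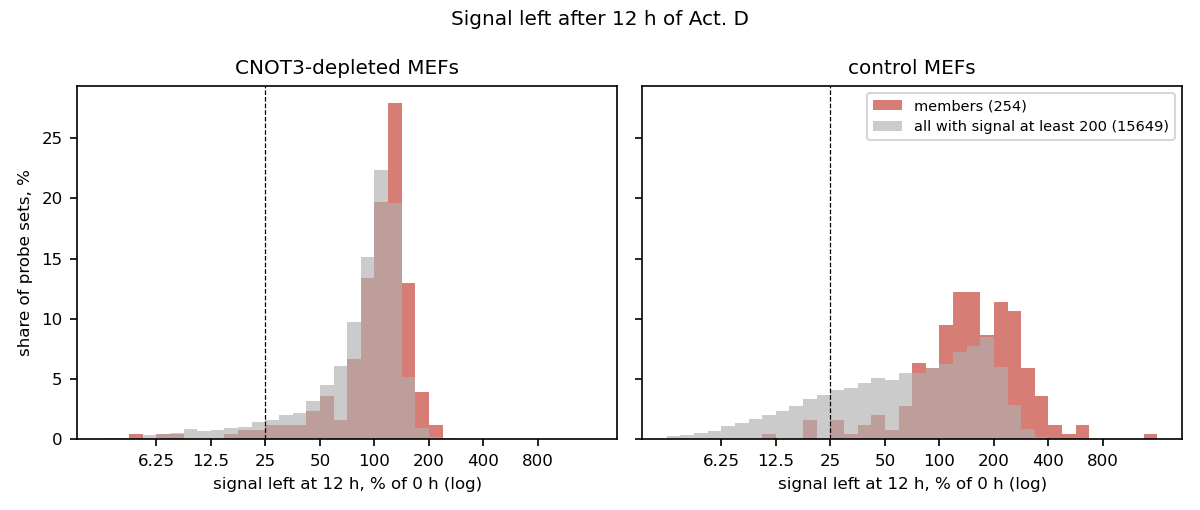
Signal left at 12 h of Act. D as a percentage of 0 h (x axis, log scale) in CNOT3-depleted MEFs, on the left, and control MEFs, on the right; bars give the share of the 254 members (red) and of all 15649 probe sets with a CNOT3KD 0 h signal of at least 200 (grey). Members lie mostly at or above 100%, with a median of 114% in CNOT3-depleted MEFs and 152% in control MEFs, and the dashed line marks 25%.

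Membership was read per probe set, and the probe sets of a gene did not always give the same answer. The brightest probe set of the gene was a member for 181 of the 212 genes. For the other 31 genes the brightest was at least 2-fold higher in 2, 1.5 to 2-fold higher in 13, 1 to 1.5-fold in 12 and lower in 4. For Becn1 (Beclin 1, a starter of autophagy) the member probe set had 491, 488 and 486 in CNOT3-depleted MEFs at 0, 6 and 12 h, against 156, 335 and 519 in control MEFs. The brightest Becn1 probe set had 3440.1, 4563 and 4478 in CNOT3-depleted MEFs, compared with 3866, 6371 and 8996 in control MEFs, and so was lower at each time. Adar, which edits double-stranded RNA, likewise had a 0 h ratio of 2.14 at its member probe set and 1.02 at its brightest. The brightest Dbp probe set kept 2.32 and 2.79 times the control fraction at 6 and 12 h, and that of the antiviral gene Ifi35 kept 1.9 and 2.25 times, so for these genes the limit on the fraction left was met at the member probe set and not at the brightest. The brightest of Pold3, Fbxo32, Slc31a2, Pde4dip, Cct4 and Add3 also kept at least 1.5 times the control fraction at 6 or 12 h. The brightest of the remaining genes of the 31 did not. Over the 99 other probe sets of member genes with a 0 h signal of at least 100, the median ratio at 0 h was 1.44, against 0.995 over all such probe sets on the array. Of the 99, 13 were at least 2-fold higher, 31 were 1.5 to 2-fold higher, 39 lay between 1 and 1.5 and 16 were lower. The limit on the fraction left excluded 7 of the 13, and the signal minimum alone excluded 6. Some of the 99 kept more than that limit, such as a Flrt3 probe set with 1.59 and 2.46 times the control fraction. Others, such as those of Tcn2, did not. Probe sets that can bind several related transcripts, with names ending in _s_at or _x_at, made up 7.87% and 7.48% of the members and 8.25% and 7.82% of the 15649.

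At least 3 member probe sets each were found for 3 genes. Tgfbi, a secreted matrix protein induced by TGF-beta, had 4, with 0 h signals of 779.7, 2285, 2105 and 881 in CNOT3-depleted MEFs, against 173, 579.6, 607 and 335 in control MEFs. Its 4 ratios at 0 h ran from 2.63 to 4.52. The 3 probe sets of Crispld2, a secreted protein, had 0 h signals of 4417, 1130.0 and 2039 in CNOT3-depleted MEFs, compared with 1585, 410.8 and 900.6 in control MEFs, with ratios of 2.26 to 2.79. The brightest had 4417, 3358 and 3618 in CNOT3-depleted MEFs over the course, against 1585, 2033 and 2839.7 in control MEFs, which narrowed the ratio to 1.27 at 12 h. The third gene, Rgs4, is short-lived and is described with that group.

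Interferon-stimulated genes were a sizeable group among the members. Interferons are secreted on viral infection, and the genes they switch on block viral replication and load viral peptides for T cells. Of the 94 measured genes of 3 interferon lists (antiviral effectors, sensing and signalling, and interferon-inducible GTPases), 13 (13.8%) were member genes, against 1.17% of all named genes. In the effector list 24 of 47 genes were at least 2-fold higher at the brightest probe set and 0 were 2-fold lower, with a median ratio of 2.12. In the GTPase list 6 of 12 were higher and 0 lower, with a median of 2.54. In the sensing list 8 of 36 were higher and 0 lower, with a median of 1.18. Over all named genes 4.99% were 2-fold higher, 3.46% were 2-fold lower and the median was 1. The medians of the 3 lists stayed above 1 under each other scaling tried.

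**Figure D3:**
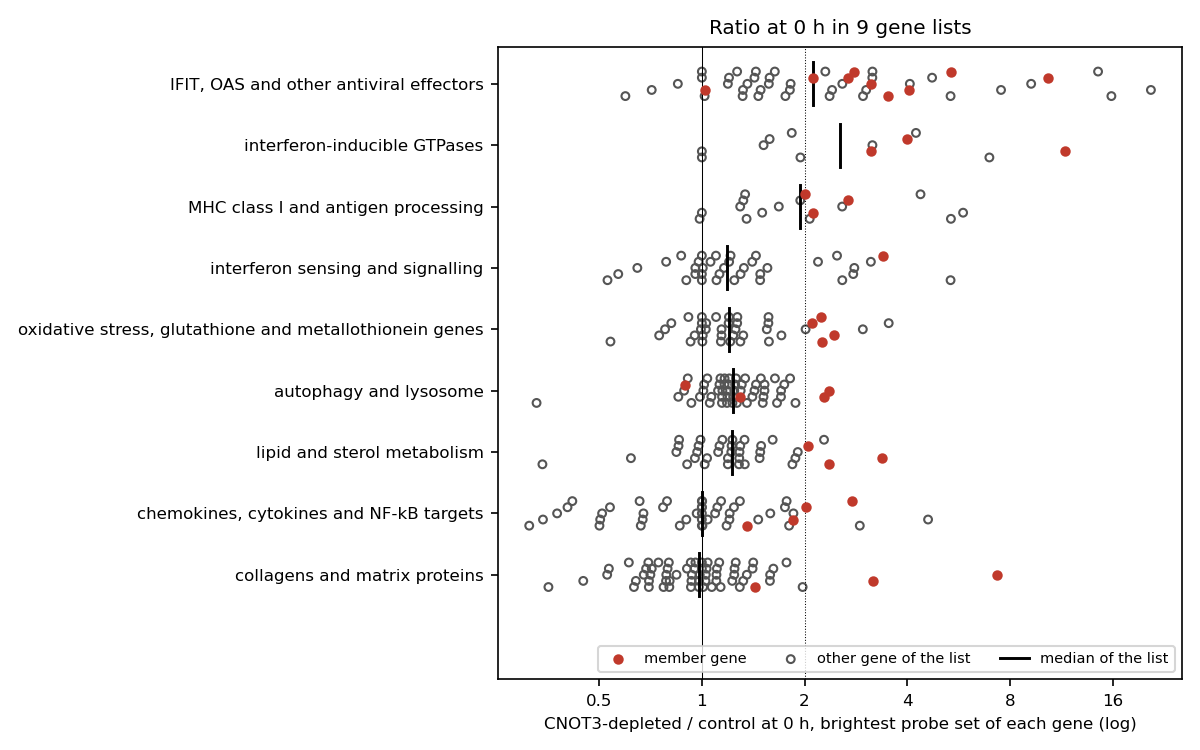
CNOT3KD to control signal ratio at 0 h (x axis, log scale) of each measured gene in 9 gene lists, read at its brightest probe set; red points are member genes, open points the other genes of the list, and black bars the list medians. The antiviral effector and GTPase lists have medians of 2.12 and 2.54, and the list of collagens and matrix proteins has 0.98.

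Not all higher interferon genes are members. Of the 24 higher effector genes, 7 met the rule at the brightest probe set and 13 bright ones kept at least 1.5 times the control fraction at 6 or 12 h, among them Ifit1, Ifit3, Usp18 and Rtp4. Of the 6 higher GTPases, 3 met the rule, and Igtp and Irgm2 were left out by the same limit. Of the 8 higher sensing genes, 1 met the rule, and Ifih1, Tlr2, Irf9 and Nmi were left out by that limit. The members described next stayed within it, though Parp9 and Herc6, for example, had a larger fraction left than in control MEFs at both times.

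Oas1a makes the oligoadenylates that activate the RNase of the antiviral response. Its signal was 253, 316 and 276 in CNOT3-depleted MEFs at 0, 6 and 12 h, against 24.5, 58.8 and 31.9 in control MEFs. Gbp3, a guanylate-binding GTPase that acts on intracellular pathogens, had 234, 233 and 199 in CNOT3-depleted MEFs, whereas control MEFs had 20.1, 57.3 and 27.6. Both were near background in the control culture, where 25.2% of all signals at 0 h lay under 20, so that their ratios of 10.4 and 11.6 at 0 h rest on a small denominator. In CNOT3-depleted MEFs both signals changed little over 12 h.

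Parp9, an ADP-ribosyltransferase-family protein of the interferon response, was well above background in both cultures. It had 887, 1040.0 and 831 in CNOT3-depleted MEFs, against 166, 165 and 112 in control MEFs, and its ratio was 5.36, 6.32 and 7.4 at the 3 times. Gbp7 had 406, 489 and 443 in CNOT3-depleted MEFs, against 101, 117 and 118 in control MEFs, a ratio that held near 4 throughout, from 3.75 to 4.16. Gbp2 had 372, 402 and 340.0 in CNOT3-depleted MEFs, compared with 135, 193 and 194.8 in control MEFs, with a ratio that narrowed to 1.75 at 12 h. For all 3 genes the lowest CNOT3KD signal lay above the highest control signal.

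Irf7, the transcription factor that amplifies type I interferon production, was the only member of the sensing list. Its signal was 351, 262 and 273 in CNOT3-depleted MEFs, whereas control MEFs had 103, 111 and 122, so that less than the 0 h signal was left under Act. D in CNOT3-depleted MEFs only. Trim34a, a TRIM-family antiviral protein, decayed in both, with 344, 102 and 85.7 in CNOT3-depleted MEFs, against 85, 27 and 40.3 in control MEFs. Its percentage left at 12 h was 24.9% in CNOT3-depleted MEFs and 47.4% in control MEFs, and it is the shortest-lived of the 13. Rnf213, a large interferon-inducible ubiquitin ligase outside the lists, had ratios of 2.79, 2.96 and 2.57. Bst2 (tetherin, which holds budding virions on the cell) had 2.79, 2.65 and 2.16, and Herc6, an ISG15 ligase in mice, had 2.68, 3.24 and 3.81. In Ifi27 and Lgals3bp the ratio at 12 h was 1.88 and 1.98.

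The promoters of these genes were searched for the core of the interferon-stimulated response element (ISRE), the site of STAT and IRF factors, because they are the members with a well-known shared element. RefSeq promoter windows (GRCm38.p6, 250 bases before to 50 after the annotated start) were found for 160 of the 212 member genes, 217 windows in all. The core was spelled GAAANNGAA and searched on both strands. It was present in 27 of the 217 windows (12.4%), in 6.87% of windows of genes with a CNOT3KD 0 h signal of at least 200 and in 8.56% of all 32851 windows. In the 3 interferon lists 40.9% of windows held it, and 7 of the 14 windows of interferon members (50%), those of 7 genes. A match is a run of letters and not a shown binding site. For each of the 7 genes 1 match is printed with up to 20 bases on each side, on the strand of the gene, with the core or its reverse complement in capitals.
Oas1a: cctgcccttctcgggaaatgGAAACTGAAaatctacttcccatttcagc
Gbp3: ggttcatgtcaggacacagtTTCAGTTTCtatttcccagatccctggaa
Gbp7: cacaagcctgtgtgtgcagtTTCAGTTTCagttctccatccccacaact
Gbp2: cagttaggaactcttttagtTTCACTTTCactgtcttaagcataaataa
Trim34a: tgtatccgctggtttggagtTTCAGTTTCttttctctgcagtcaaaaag
Bst2: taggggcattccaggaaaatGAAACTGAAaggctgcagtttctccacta
Adar: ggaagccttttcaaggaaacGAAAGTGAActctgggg

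The printed stretches lie at chr5:120907511-120907559 (Oas1a, minus strand), chr3:142559980-142560028 (Gbp3, plus), chr3:142530264-142530312 (Gbp7, plus), chr3:142620585-142620633 (Gbp2, plus), chr7:104244448-104244496 (Trim34a, plus), chr8:71537568-71537616 (Bst2, minus) and chr3:89730731-89730767 (Adar, plus). The core starts 14 bases before the annotated start in Oas1a, 44 before in Gbp3, 52 before in Gbp7, 58 before in Gbp2 and 124 before in Bst2. In Trim34a and Adar it starts 11 and 33 bases after. Gbp3, Gbp7 and Trim34a share the letters TTCAGTTTC, and the longest run that Gbp3 and Gbp7 share is 13 bases, cagtttcagtttc. Gbp3 and Trim34a, on different chromosomes, also share a run of 13 bases, and Gbp7 and Trim34a share 12 bases. Gbp3 and Gbp7 neighbour each other on the chromosome. In Oas1a, Gbp3 and Bst2 a further match overlaps the one printed. Adar has a further match that starts 249 bases before the annotated start. Irf7, whose signals were given with the sensing genes, had no match in its window.

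Other motifs were counted in the same windows. TTCNNNGAA, the STAT-binding GAS motif, was in 10.1% of member windows, 6.31% of windows of genes at 200 or more and 8.30% of all windows. GGANNTTCC, a core of NF-kB sites, was in 6.45%, 4.60% and 4.26%. TATAAA was in 13.8%, 7.13% and 13.6%. TGACGTCA, the CRE of CREB-family factors, was in 0 of the 217 member windows, 3.16% of the windows of genes at 200 or more and 1.79% of all.

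Genes that present antigen to T cells were among the members too. H2-K1 is a classical MHC class I heavy chain, H2-M3 a non-classical one that binds formylated peptides, and Psmb10 a catalytic subunit of the immunoproteasome. In the list of MHC class I and antigen processing, 8 of 17 genes were 2-fold higher and 0 lower, with a median of 1.94, and these 3 are member genes. Tap1 and Psmb8 were also 2-fold higher but kept at least 1.5 times the control fraction at 6 or 12 h. H2-M3 had 451, 589 and 682 in CNOT3-depleted MEFs at 0, 6 and 12 h, against 168, 268 and 404 in control MEFs. Psmb10 had 1271, 1290.2 and 1450.2 in CNOT3-depleted MEFs, compared with 601, 867 and 750.2 in control MEFs, without overlap. The brighter H2-K1 member probe set had 2318, 2762 and 3001 in CNOT3-depleted MEFs, whereas control MEFs had 1157, 1937 and 2917, so that the cultures met at 12 h, when the ratio was 1.03. An H2-K1 probe set that is not a member had a 0 h ratio of 1.08, and class I heavy chains are alike enough in sequence that probe sets of this kind can share transcripts.

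Secreted matrix proteins and the enzymes that cut the matrix supplied several of the largest ratios. Col10a1, a collagen best known from hypertrophic cartilage, had 1840.0, 2273 and 3249 in CNOT3-depleted MEFs, against 251, 519.8 and 830.3 in control MEFs. It was 7.34-fold higher at 0 h and 3.91-fold higher at 12 h, with no overlap between the cultures. Among 14 measured markers of cartilage and bone, Col10a1 was the only one at least 2-fold higher, and Col2a1, the main cartilage collagen, had 0 h signals of 930.0 in CNOT3-depleted MEFs and 1523 in control MEFs.

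Mmp13 and Mmp11 are matrix metalloproteinases, and they were the only 2 of 24 genes of their list that were 2-fold higher. Mmp13, a collagenase, had 218, 281 and 261 in CNOT3-depleted MEFs, against 27.2, 43 and 86.1 in control MEFs. Mmp11 had 1584, 1079 and 1211 in CNOT3-depleted MEFs, compared with 551, 542 and 416 in control MEFs. In both the lowest CNOT3KD signal lay above the highest control signal, and Mmp11 ended at 12 h with the ratio it had at 0 h, 2.91 and 2.88.

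Omd and Aspn encode small leucine-rich proteoglycans of the matrix and neighbour each other on the chromosome. Omd had 839, 1101 and 1758 in CNOT3-depleted MEFs, against 264, 477 and 1027 in control MEFs. Aspn had 3580.2, 5595 and 6242 in CNOT3-depleted MEFs, against 1755, 4202 and 7459.6 in control MEFs, and its 12 h ratio was 0.837. In both genes less of the 0 h signal was left at 12 h in CNOT3-depleted MEFs, 209.5% and 174%, than in control MEFs, 389% and 425%. These percentages hold for the array scale used, on which ribosomal protein signals also rose more in control MEFs. Ssc5d, a secreted scavenger receptor, was the extreme case. It had 271, 288 and 265 in CNOT3-depleted MEFs, whereas control MEFs had 28.9, 249 and 389, so a 9.41-fold difference at 0 h was 0.679 at 12 h. Its control signal at 0 h was close to background.

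Sbspon, another secreted protein, had 237, 236 and 401 in CNOT3-depleted MEFs, against 25.9, 116 and 135 in control MEFs at its member probe set. At its brightest probe set the 0 h ratio was 2.66 in place of 9.17. Mfap5, a microfibril protein, had ratios of 2.07 at 0 h and 0.833 at 12 h at its member probe set and 1.43 at 0 h at its brightest. The matrix list as a whole was centred near a ratio of 1. Of 63 collagens and matrix proteins 2 were 2-fold higher and 2 were 2-fold lower, with a median log2 ratio of -0.03, which was 0.03 with median scaling, -0.04 with quantile normalization and 0.03 with ribosomal protein scaling.

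**Figure D4:**
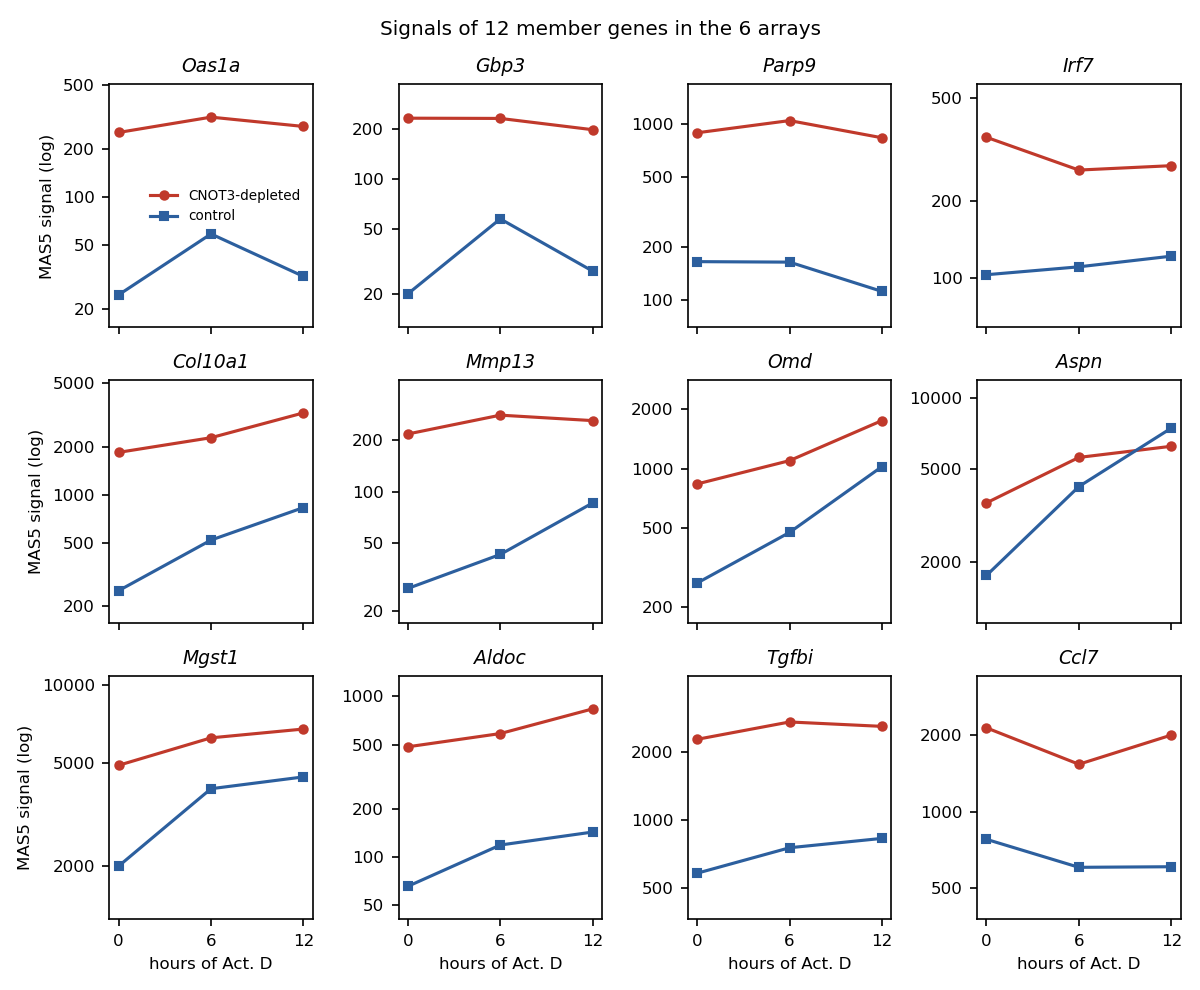
MAS5 signal (y axis, log scale) at 0, 6 and 12 h of Act. D (x axis) for 12 member genes, 1 array per point, in CNOT3-depleted MEFs (red circles) and control MEFs (blue squares). The lines stay apart for Parp9, Oas1a, Gbp3, Col10a1 and Tgfbi and cross for Aspn, whose ratio was 2.04 at 0 h and 0.84 at 12 h.

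Enzymes that handle reactive electrophiles and oxidants were also among the members. Glutathione transferases couple glutathione to such compounds, and glutathione peroxidases reduce peroxides. In the list of oxidative stress, glutathione and metallothionein genes, 7 of 39 were 2-fold higher and 0 lower, with a median of 1.20, and 4 are members. Mgst1, a membrane-bound glutathione transferase, was among the brightest members, with 4907, 6261 and 6769.8 in CNOT3-depleted MEFs, compared with 2006, 3986 and 4427 in control MEFs. Gsta4, which clears the lipid peroxidation product hydroxynonenal, had 856, 1047 and 1233 in CNOT3-depleted MEFs, whereas control MEFs had 379.7, 758 and 721. Relative to 0 h, the signals of both were higher under Act. D in both cultures, and more so in control MEFs, on the array scale used. Gpx3, the secreted glutathione peroxidase, and Gstt1, a further transferase, had 0 h ratios of 2.24 and 2.1 and 12 h ratios of 1.4 and 1.16.

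Reductases next to one another on the chromosome, Dcxr and Cbr2, reduce carbonyl compounds. Dcxr, which is also on the list of p53 targets, had 2599.7, 2685 and 3065 in CNOT3-depleted MEFs, against 1126, 1599 and 1265 in control MEFs, and its ratio was kept at 2.42 at 12 h. Cbr2 had 889.8, 1045 and 1650.0 in CNOT3-depleted MEFs, compared with 443, 940.1 and 1763 in control MEFs, and its ratio was 0.936 at 12 h. The neighbours thus had like ratios at 0 h and unlike ones after Act. D. Blvrb, a biliverdin reductase, and Adh1, an alcohol dehydrogenase, had 0 h ratios of 2.54 and 3.77 and 12 h ratios of 2.36 and 2.58. These genes and the others put together by role here, outside the lists, were chosen after their values were seen.

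Metabolic genes in the set ranged over sugars, lipids and vitamin A. Aldoc, a glycolytic aldolase, had 486, 588 and 837 in CNOT3-depleted MEFs, against 65.8, 119 and 143 in control MEFs, a difference that lasted through all 3 times. Lpin1 makes diacylglycerol for lipid synthesis and had 1301, 1187 and 1269 in CNOT3-depleted MEFs, whereas control MEFs had 341, 372 and 277 at its member probe set. A further Lpin1 probe set had 857, 757 and 793 in CNOT3-depleted MEFs, against 251, 125 and 133 in control MEFs. It kept 1.77 and 1.75 times the control fraction at 6 and 12 h, so it was left out by the limit. Fabp3, a fatty-acid carrier, had 3215, 3823 and 4351 in CNOT3-depleted MEFs, against 1565, 3015 and 3354 in control MEFs. Both aldolase and lipin signals were separate between the cultures at each time, while those of Fabp3 overlapped across times.

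Crabp2 carries retinoic acid to the nucleus, and it had 3749, 3284 and 4453 in CNOT3-depleted MEFs, compared with 1608, 2138 and 2562 in control MEFs. Apod, a lipid-binding secreted protein, had 248, 403 and 375 in CNOT3-depleted MEFs, whereas control MEFs had 73.8, 173 and 259. In the list of lipid and sterol metabolism 4 of 37 genes were 2-fold higher and 1 was 2-fold lower, with a median of 1.22.

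Of the 53 measured genes of autophagy and lysosome, 2 were 2-fold higher at the brightest probe set, no larger a share than the 4.99% of all named genes, and 1 was lower, with a median of 1.24. The lysosomal members were Ctsk, Gla and Lipa. Ctsk encodes cathepsin K, a collagen-cutting protease, and had 4362, 5215 and 6097 in CNOT3-depleted MEFs, against 1853, 3226 and 4373 in control MEFs. Gla, the alpha-galactosidase of glycolipid breakdown, had 1343, 1690.4 and 2011 in CNOT3-depleted MEFs, against 589.8, 902 and 1157 in control MEFs. Lipa, lysosomal acid lipase, had 635, 595 and 771 in CNOT3-depleted MEFs, compared with 272, 599 and 831 in control MEFs at its member probe set, and a 0 h ratio of 1.3 at its brightest. Only Gla kept a ratio above 1.5 at 12 h.

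Secreted signals in the set included 3 chemokines and a cytokine antagonist. Ccl7, which attracts monocytes, had 2144, 1540.4 and 2007 in CNOT3-depleted MEFs, whereas control MEFs had 779, 604 and 607, without overlap. Il1rn, the antagonist of the interleukin-1 receptor, had 422, 345 and 428 in CNOT3-depleted MEFs, against 206, 238 and 180.1 in control MEFs at its member probe set. The brightest Il1rn probe set had a 0 h ratio of 1.84. A further one had a 0 h ratio of 1.36 and kept 1.68 and 2.99 times the control fraction at 6 and 12 h. Cxcl16 and Cxcl14 had 0 h ratios of 2.02 and 2.15, and the Cxcl16 ratio was 0.784 at 12 h. The brightest Cxcl14 probe set had a 0 h ratio of 1.36. The list of chemokines, cytokines and NF-kB targets as a whole held 4 genes 2-fold higher and 5 lower among 47, with a median of 1. Lgr5, a receptor for R-spondins that strengthens Wnt signalling, had 659.5, 594 and 649 in CNOT3-depleted MEFs, compared with 249, 275 and 244 in control MEFs. Casp12, an endoplasmic reticulum caspase, was the 1 member among 32 genes of necroptosis and death receptor signalling, 8 of which were 2-fold higher and 2 lower, and had ratios of 2.24 at 0 h and 1.61 at 12 h.

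Imprinted genes, read from 1 parental copy, gave Mest and Nap1l5. Mest had 1450.2, 1886 and 2196 in CNOT3-depleted MEFs, whereas control MEFs had 663, 1478 and 1912. Nap1l5 had 214, 158 and 189.5 in CNOT3-depleted MEFs, against 90.8, 87.2 and 99.8 in control MEFs, and it lies inside Herc3, which is also a member, with a ratio of 2.21 at 0 h. Of 30 imprinted genes measured, 3 were 2-fold higher and 2 lower.

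A few markers of other cell types were also higher in CNOT3-depleted MEFs at 0 h. The summed 0 h signal of 20 leukocyte markers was 5483 in CNOT3-depleted MEFs and 3973 in control MEFs. Cd68, a macrophage lysosomal protein, was the 1 marker among them that was 2-fold higher and a member, with 265, 297 and 359 in CNOT3-depleted MEFs, compared with 128, 294 and 400.05 in control MEFs. Itgam, Aif1, Cd3e and Cd79a were at 20 in both cultures at 0 h, and Ptprc had 65.1 in CNOT3-depleted MEFs and 62.7 in control MEFs. The part of such cells in the interferon, antigen presentation, chemokine and lysosome results was not tested. Of 18 epithelial markers 4 were 2-fold higher and 2 were 2-fold lower, with a median of 1.05, and the 4 include the members Dsp, a desmosome protein, and Krt19, a keratin. Dsp had 443, 628 and 534 in CNOT3-depleted MEFs, whereas control MEFs had 96.2, 213 and 224, and Krt19 had 1157, 1232 and 1372 in CNOT3-depleted MEFs, against 495, 468 and 487 in control MEFs. The epithelial markers Epcam and Cdh1 had 0 h signals of 154 and 28.5 in CNOT3-depleted MEFs, compared with 145 and 20 in control MEFs. Of 13 skeletal muscle markers 2 were 2-fold higher and 1 was 2-fold lower. Their summed 0 h signal was 6979 in CNOT3-depleted and 4043 in control MEFs, of which the actin Acta1 gave 6105 in CNOT3-depleted and 3337 in control MEFs. Actc1, an actin of striated muscle and the 1 member among them, had 253, 199 and 257 in CNOT3-depleted MEFs, compared with 91.8, 112 and 152 in control MEFs. The part of such cells in these results was not tested.

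A small part of the set consisted of short-lived mRNAs. Less than 50% was left at 12 h in both cultures in 16 members, 6.30% of the 254, against 14.5% of the 15649 probe sets. Rgs4, a brake on G protein signalling, gave 3 of them. Its brightest probe set had 1281, 347 and 249.8 in CNOT3-depleted MEFs, whereas control MEFs had 405, 73.9 and 117, and the others had 862, 283 and 278 and 213.8, 114 and 86.9 in CNOT3-depleted MEFs, against 332, 112 and 94.9 and 102, 44.3 and 42.1 in control MEFs. All 3 were higher in CNOT3-depleted MEFs at each time and lost most of their signal in both cultures by 12 h. Rgs5, the neighbouring gene of the same family, was long-lived, with 367, 431 and 400.3 in CNOT3-depleted MEFs, against 169, 366 and 571 in control MEFs.

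Fbxo32 (atrogin-1, a ubiquitin ligase of muscle wasting) gave 2 of the 5 members with at most 25% left in both cultures. Its brighter member probe set had 395, 46.2 and 20 in CNOT3-depleted MEFs, compared with 174, 20 and 20 in control MEFs, where each 20 is a signal set to that value. A still brighter Fbxo32 probe set, not a member, had 709, 143 and 75 in CNOT3-depleted MEFs, whereas control MEFs had 453, 46.6 and 20, and so kept a larger fraction in CNOT3-depleted MEFs. G0s2, an inhibitor of fat breakdown, had 312, 45.9 and 76.5 in CNOT3-depleted MEFs, against 100.3, 20 and 20 in control MEFs. Ccdc28b and an unnamed probe set complete the 5. All 5 reached 20 in control MEFs at 12 h, so their control percentages are upper bounds and how fast they decayed in the 2 cultures cannot be set side by side closely.

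Above that floor, Rhebl1, a small GTPase related to Rheb, had 649.7, 173 and 118 in CNOT3-depleted MEFs, compared with 299, 122 and 80.3 in control MEFs. Dennd2c, a regulator of Rab GTPases, had 324, 110.3 and 85.7 in CNOT3-depleted MEFs, whereas control MEFs had 157, 47.4 and 50.6. Dbp, a clock-controlled transcription factor, had 305, 175 and 128 in CNOT3-depleted MEFs, against 72.9, 61.1 and 29 in control MEFs at its member probe set. The percentage of Rhebl1 left at 12 h at its member probe set was 18.2% in CNOT3-depleted and 26.9% in control MEFs. That of Dennd2c was 26.5% in CNOT3-depleted and 32.3% in control MEFs. A further Rhebl1 probe set, not a member, had 518, 79.9 and 74.3 in CNOT3-depleted MEFs, against 207, 20 and 20 in control MEFs. Each 20 is again a signal set to that value. This probe set kept at least 1.596 times the control fraction at 6 h, so it was left out by the limit. Pik3r3, a regulatory subunit of PI3-kinase, had 993, 664 and 573 in CNOT3-depleted MEFs, compared with 488, 276 and 196 in control MEFs, and its ratio widened to 2.92 at 12 h, within the limit of the rule. Sema4f, a semaphorin, had 378, 141 and 161 in CNOT3-depleted MEFs, whereas control MEFs had 64.2, 50.1 and 38.5.

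**Figure D5:**
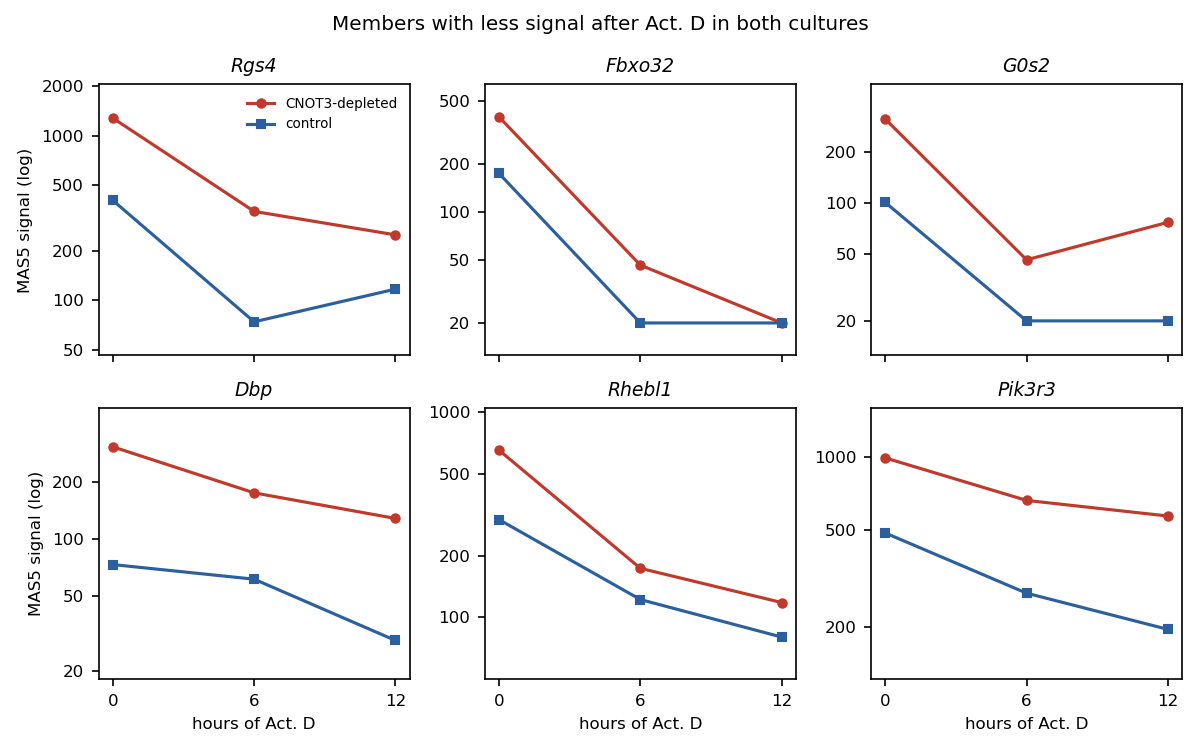
MAS5 signal (y axis, log scale) at 0, 6 and 12 h of Act. D (x axis) for 6 member genes with less signal after Act. D in both cultures, 1 array per point, in CNOT3-depleted MEFs (red circles) and control MEFs (blue squares). Values of 20 for Fbxo32 and G0s2 are signals set to 20, and the control line of Rgs4 lies below the CNOT3-depleted line at each time.

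At the other end, 23 members had a lower signal in CNOT3-depleted than in control MEFs at 12 h on the array scale used. Atp6v1e1, a subunit of the proton pump of lysosomes, had 573, 372 and 157 in CNOT3-depleted MEFs, against 184, 231 and 515 in control MEFs at its member probe set. Its brightest had 6457, 7965 and 8480.5 in CNOT3-depleted MEFs, compared with 4892, 7974 and 10456 in control MEFs, a ratio of 1.32 at 0 h and 0.811 at 12 h. Cct4, a subunit of the cytosolic chaperonin, had 286, 279.6 and 226 in CNOT3-depleted MEFs, whereas control MEFs had 53.3, 102 and 344 at its member probe set, and 16067, 18139.6 and 19115 in CNOT3-depleted MEFs, against 14126, 14866 and 8819.9 in control MEFs at its brightest. For Cct4 the ratios of the 2 probe sets thus moved in opposite directions between 0 and 12 h. Apoe, the lipoprotein of cholesterol transport, had 251, 259 and 240.1 in CNOT3-depleted MEFs, compared with 107, 138 and 364 in control MEFs. Nmb, a bombesin-like peptide, had 218, 272 and 303 in CNOT3-depleted MEFs, whereas control MEFs had 67.8, 229.8 and 320.3.

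The remaining members with large ratios or signals included genes of little-known function. 1700007K13Rik had 1105, 1044 and 1187 in CNOT3-depleted MEFs, against 209, 154 and 160.2 in control MEFs, so that its ratio was 5.28, 6.79 and 7.41 at 0, 6 and 12 h. Flywch2 had 291, 403 and 431 in CNOT3-depleted MEFs, against 40.8, 105 and 76.1 in control MEFs. Both were far apart between the cultures at each time. Crip1, a LIM-domain protein, had the highest 0 h signal among the members, with 5170.1, 5533 and 6339 in CNOT3-depleted MEFs, compared with 2392, 4079.9 and 5655 in control MEFs, and its ratio was 1.12 at 12 h. In the order of genes on the chromosomes, 9 pairs of member genes were next to each other, among them Rgs5 and Rgs4, Aspn and Omd, Gbp7 and Gbp3, Dcxr and Cbr2, Rac3 and Dcxr, and Mmp11 and Chchd10.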

How the data were processed

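Gene expression was measured with 1 GeneChip array for each of 6 conditions. The authors deposited 1 linear intensity per probe set and array, a signal computed with MAS5. Its version and scaling target were not given in the sources used here. Trimmed means of the arrays lay between 494 and 497, and between 25.2% and 30.8% of signals were under 20. They cover 45037 probe sets without the Affymetrix controls. Names came from the platform annotation, which gives 1 gene for 34945 probe sets, several for 932 and none for 9160; probe sets with several genes were not named.

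No further scaling was applied in the main setting. The rule was tested before use on simulated arrays, with changes planted only in bright probe sets and little added noise. That checks the working of the rule and not its error on these arrays. Python 3.11.15, pandas 2.3.3, numpy 2.4.6, statsmodels 0.14.6 and matplotlib 3.10.9 were used. The members and the 29 gene lists were chosen with earlier results of these data known, so list counts are descriptions. Each list gene was read at its brightest probe set. The genes named are the 12 with the largest ratio at 0 h, the 6 brightest, up to 4 members of each list, the 5 with the lowest percentage left in control MEFs, the 5 with the lowest ratio of fractions left, and those with 3 or more member probe sets. Other genes are examples chosen after their values were seen. With 1 array per condition no test, error or p-value can be given. Alternatives were other floors, scalings, signal minimums, limits, probe set choices and a shorter promoter window. Leaving out the probe sets whose names end in _s_at or _x_at was an alternative added after seeing the data. Coordinates are those of the RefSeq promoter table.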

Additional observations from a re-analysis of the deposited data

Results flagged for a closer look

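The genes in this part are members whose difference between the cultures at 12 h of Act. D ran opposite to that at 0 h, with a ratio at or under 1/1.5. The change was not tested, since each condition has 1 array, and the 12 h ratios hold for the array scale used. For Atp6v1e1 the CNOT3KD to control ratio was 3.11 at 0 h and 0.305 at 12 h. For Cct4 it was 5.35 at 0 h and 0.655 at 12 h. For Apoe it was 2.35 at 0 h and 0.660 at 12 h. At the brightest probe set of the gene the ratios at 0 and 12 h were 1.32 and 0.811 for Atp6v1e1 and 1.14 and 2.17 for Cct4.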

How the results depend on the processing

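No paired analysis was possible because each condition has 1 array, and for the same reason no sample could be left out. The 254 members, 212 genes, 74 members at least 2-fold higher at all times, 5 with at most 25% left in both cultures and 13 interferon genes changed by less than 1.5 times under the alternatives, with these exceptions. The 5 became 2 with signals under 50 set to 50, 2 with signals under 1 set to 1, 0 without signals under 20, 3 with median scaling, 2 with quantile normalization, 13 with ribosomal protein scaling, 0 with a signal minimum of 400 and 2 with the brightest probe set of each gene. The 74 became 169 with ribosomal protein scaling, 45 with the minimum of 400 and 119 with a limit of 2 on the ratio of fractions left. The minimum of 400 also gave 144 probe sets, 120 genes and 6 interferon genes, fewer by its construction, and the limit of 2 gave 22 interferon genes. Otherwise the cause was not tested. Of the 254 probe sets, 210 met the rule with median scaling, 204 with quantile normalization and 192 with ribosomal protein scaling. All 254 stayed higher at 0 h under each scaling, with a lowest ratio of 1.99. Nothing is read from this, since the members were picked for a ratio of at least 2 on the same arrays. The scalings also moved the 0 h ratios little. The median log2 ratio shifted by 0.088 with median scaling, -0.006 with quantile normalization and 0.088 with ribosomal protein scaling. In the 150 bases before the start, the ISRE core was in 7.37% of member windows and 3.95% of all windows, the GAS motif in 5.99% and 4.09%, the NF-kB core in 2.30% and 2.35% and TATAAA in 5.07% and 7.57%. Precision is limited by having 6 arrays, most of all for the 44 members under 100 in control MEFs at 0 h.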
